A study of Mus musculus with 2 samples.

Results

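Heart muscle cells with little Myl2 were taken from a pair of single-cell RNA libraries of mouse embryos at embryonic day 9.5 (E9.5). A cell was included when it had at least 1000 detected genes, at most 10% of its unique molecular identifiers (UMIs, counted transcripts) from mitochondrial genes, at least 1% of its UMIs from 8 heart muscle genes (Tnnt2, Tnni1, Myl4, Actc1, Ttn, Myh6, Myh7 and Myl7), and fewer than 5 UMIs of Myl2. The rule was met by 644 of the 17699 cells in the files, or of the 16780 that passed the limits on genes and mitochondrial UMIs. They are called Myl2-low cells here, and the 250 heart muscle cells with 5 or more Myl2 UMIs are called Myl2-positive cells. All cells came from Swiss Webster embryos, from the pharyngeal apparatus and heart, sorted as positive for GFP and negative for the dye DAPI. The library labelled Ctrl had the genotype Mesp1Cre;Rosa26-GFPflox/+. The library labelled cKO had the genotype Mesp1Cre;Rosa26-GFPflox/+;Tbx1flox/flox, so both groups carried the Cre driver and the reporter and only the second carried the floxed Tbx1 alleles. Mesp1Cre acts in the early mesoderm, so the alleles were targeted in heart muscle and in most other mesoderm at the same time. A pair of embryos was pooled for each library, each group has 1 library, and the study lists slightly more somites for the cKO embryos. No difference below has a replicate check, and the 95% intervals given include nothing but counting error. The cells were chosen by their measured UMIs of the 8 genes and of Myl2, so the levels of these genes are a description.

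The heart tube grows by addition of muscle at both of its poles. Myl2 encodes the regulatory myosin light chain of the ventricle, and Myl7 the corresponding light chain that all early heart muscle makes and that later stays on in the atria. Muscle at the venous pole, which forms the sinus venosus and its pacemaker, is known for Shox2, Tbx18 and Hcn4, and muscle at the arterial pole, the outflow tract, for Isl1, Sema3c and Tdgf1. Tbx1 is a T-box transcription factor of the pharyngeal mesoderm that supplies cells to the arterial pole.

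In the library labelled Ctrl 193 cells were Myl2-low, with 3467626 UMIs in all and a median of 15989 per cell. In the library labelled cKO 451 cells were Myl2-low, with 8156084 UMIs and a median of 15088. The corresponding medians over all cells passing the filter were 17308 and 14684. Levels are UMIs per 1000000 UMIs of the summed cells (CPM), and for a gene without UMIs the upper limit, taken as 3 counts, was 0.865 CPM in Ctrl and 0.368 CPM in cKO. Of the cell barcodes, 15 occurred in both libraries, 1 of them in Myl2-low cells of both. Presumed doublets, the cells of highest doublet score, made up 8.81% (5.22 to 13.7) of Myl2-low cells in the library labelled Ctrl and 16.2% (12.9 to 19.9) in the library labelled cKO, against 5.94% and 8.23% of all cells passing the filter. They were kept. The counts of genes, the list medians and the shares of cells are also given without the sub-cluster that held most of them. At least 1 haemoglobin UMI was found in 1.04% of the Myl2-low cells of the library labelled Ctrl and in 88.9% of those labelled cKO, where 3 cells held 20063 of 21322 such UMIs. The summed primitive erythroid markers were at 0.865 and 2620 CPM, and at 10.2 and 11192 CPM in the cells that were not heart muscle. Their part in the differences below was not tested, and haemoglobin, ribosomal protein, mitochondrial and sex-linked genes were left out of every count of genes.

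The targeted gene went against the label. Tbx1 (chromosome 16, 18580979 to 18590671 in GRCm38) had 8 UMIs, 2.31 CPM, in the Myl2-low cells labelled Ctrl and 117 UMIs, 14.3 CPM, in those labelled cKO. Of these, 3 and 110 UMIs lay in the mixed sub-cluster described below, and without it the log2 ratio of cKO over Ctrl was −0.40 in place of 2.64. Reads at the 3′ end cannot tell an intact from a recombined transcript. The groups are therefore called by their labels throughout.

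Among the rule genes, Myl7 was the most abundant, at 9924 CPM in the library labelled Ctrl and 11012 CPM in the library labelled cKO. Actc1, the cardiac actin, was at 8963 and 10316 CPM, and Myl4, the essential light chain of early and atrial muscle, at 6613 and 6269 CPM. The titin gene Ttn was at 3788 and 2951 CPM, Tnnt2 (troponin T) at 2604 and 2783 CPM and Tnni1 (slow troponin I) at 1298 and 1324 CPM. Of the heavy chains, Myh6 was at 1137 and 1115 CPM and Myh7 at 369 and 256 CPM. Thus all 8 rule genes were present in both libraries, and in these sums none differed by as much as 1.5-fold. The log2 ratio of Myh7, −0.53, depended on the setting and ran from −0.75 to 0.024 over the alternatives, while those of the other 7 stayed between −0.38 for Ttn and 0.29 for Actc1. The 8 genes together made up a median of 3.09% of the UMIs of a Myl2-low cell labelled Ctrl, from 1.01% to 9.93%, and of 3.39% labelled cKO, from 1.01% to 9.41%. Just inside the limit, at 1% to 1.1%, lay 8 and 23 cells with fewer than 5 Myl2 UMIs, and just outside it, at 0.9% to 1%, lay 6 and 13.

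Promoter sequences are shown for Myl7 and Actc1, the most abundant rule genes, because both hold a CArG box close to their start. This element is bound by serum response factor, with which the product of Myocd acts. Myocd was lower in the library labelled cKO, as given below, and Myl7 and Actc1 were not lower there. A link between them was not tested. Each run is the 250 bases before the RefSeq start, from 5′ to 3′ on the strand of the gene (minus for both, build GRCm38.p6), with the CArG box in capitals. The windows are chr11:5898783-5899032 and chr2:114052876-114053125.
Myl7: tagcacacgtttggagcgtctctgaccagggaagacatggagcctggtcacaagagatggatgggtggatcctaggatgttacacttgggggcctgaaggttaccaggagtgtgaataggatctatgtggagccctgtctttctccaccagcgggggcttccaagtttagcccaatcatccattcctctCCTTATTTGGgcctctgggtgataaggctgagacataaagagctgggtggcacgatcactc
Actc1: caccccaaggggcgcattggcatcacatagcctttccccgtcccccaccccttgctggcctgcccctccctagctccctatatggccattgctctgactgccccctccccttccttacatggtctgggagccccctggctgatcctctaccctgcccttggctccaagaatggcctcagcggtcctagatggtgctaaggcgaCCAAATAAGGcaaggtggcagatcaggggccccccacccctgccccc
The box reads the same on both strands in form, and 482 of 32851 windows in the RefSeq table, or 1.47%, held at least 1. Among sarcomere genes, rule genes and Myl2, 26 of 31 genes had windows, and 7 of their 38 windows, or 18.4%, held a box, at Actc1, Ldb3, Myl3, Myl7, Myom1 and Nebl. Among the genes at least 2-fold lower in the library labelled cKO, 3 of 112 windows did, or 2.68%. A match of letters is a description and not a bound site.

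Myl2 separated the heart muscle cells into a large group with none or hardly any and a smaller group with many. In the library labelled Ctrl, 149 of 288 heart muscle cells had no Myl2 UMI, 26 had 1, and 75 had 13 or more. In the library labelled cKO, 352 of 606 had none, 65 had 1, and 138 had 13 or more. Few cells lay beside the limit of 5, with 4 cells labelled Ctrl at 4 UMIs and 4 at 5, and 6 and 3 cells labelled cKO. The plot of Myl2 UMIs per cell shows this shape in both libraries.

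**Figure D1:**
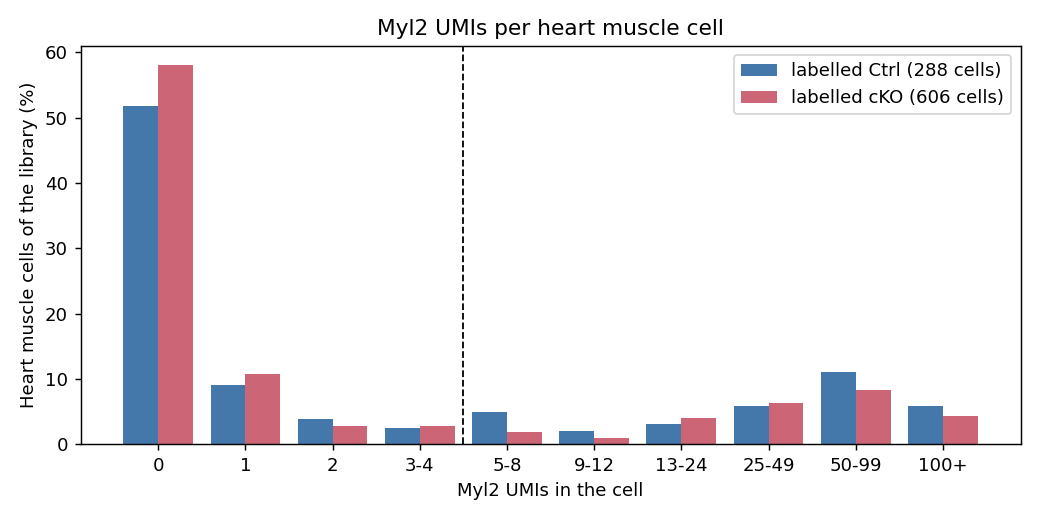
Share of heart muscle cells of each library (y axis, percent) by the number of Myl2 UMIs in the cell (x axis, bins of unequal width), with the library labelled Ctrl in blue and the library labelled cKO in red. The dashed line marks the limit between Myl2-low and Myl2-positive cells; cells without a Myl2 UMI are the largest bin, 51.7% and 58.1%, and the bins from 3 to 12 UMIs are thinly filled.

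Myl2-low cells made up a larger share of the library labelled cKO. They were 2.75% (2.38 to 3.16) of the cells passing the filter in the library labelled Ctrl and 4.61% (4.21 to 5.05) in the library labelled cKO, a ratio of 1.68 (1.41 to 1.99). Myl2-positive cells were 1.36% (1.098 to 1.65) and 1.59% (1.35 to 1.85), intervals that overlap. Among heart muscle cells alone, 67.0% (61.3 to 72.4) and 74.4% (70.8 to 77.9) were Myl2-low. In cells with Xist and no Y-linked UMI the shares were 2.91% and 4.58%, and in cells with Y-linked UMIs and no Xist they were 2.42% and 4.17%. The sort and the dissection set how much of the heart entered each library, and their part in these shares was not tested.

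The rule's description of these cells as atrial, sinus and outflow type held in part. Summed over its 8 markers, the sinus venosus list was at 1081 CPM in Myl2-low cells against 178 CPM in Myl2-positive cells of the library labelled Ctrl, and at 811 against 164 CPM in the library labelled cKO. The 10 atrial markers were at 1553 against 1202 CPM and at 1143 against 1166 CPM, but Nppa, the atrial natriuretic peptide, is on that list and was at 365 against 953 CPM and 294 against 914 CPM. Without Nppa the list was at 1188 against 249 CPM and at 849 against 251 CPM. Of its other markers, Nr2f2, Nr2f1, Stard10 and Angpt1 were all higher in Myl2-low cells, Nr2f2 for example at 372 against 62.5 CPM and 240 against 71.4 CPM. Nr2f2 is also on the sinus venosus list, so both sums hold it. Tbx5 was not at least 2-fold higher in both libraries, and Kcnj3 and Sln were below the minimum for counting. The 8 outflow tract markers were at 578 against 577 CPM in the library labelled Ctrl and at 374 against 211 CPM in the library labelled cKO, so that Myl2-positive cells labelled Ctrl carried them to the same summed level. Myl2-low cells are accordingly not called outflow tract as a whole.

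Of the 10 ventricular markers, Myl2 was used by the rule, and the other 9 summed to 1426 against 4505 CPM and 1360 against 3508 CPM. Irx4 and Hey2, transcription factors of ventricular muscle, had 1 and 4 UMIs in the Myl2-low cells labelled Ctrl and 2 and 8 in those labelled cKO. Myl3, the ventricular essential light chain, was present in Myl2-low cells at 1162 and 1166 CPM. Markers of other cells were present at different levels. Neural crest markers were at 6.06 and 7.11 CPM against 40.8 and 28.1 CPM in the cells that were not heart muscle, mesenchyme at 211 and 288 CPM against 880 and 787 CPM, and the endothelial and endocardial list at 105 and 101 CPM against 201 and 147 CPM. The epithelial list was higher than in those cells, at 238 and 294 CPM against 99.5 and 141 CPM, mostly from the keratin genes Krt8 and Krt18, while Epcam was at 0 in the library labelled Ctrl and Cdh1 and Foxa2 at 0 in the library labelled cKO. The smooth muscle list was at 5851 and 5798 CPM, mostly from Acta2 and Tagln, which early heart muscle also makes, against 5147 and 5196 CPM in Myl2-positive cells.

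Compared with Myl2-positive cells, Shox2 had the largest ratio among the leading genes in the library labelled Ctrl and Calca in the library labelled cKO. Of 7386 genes counted, 80 were at least 2-fold higher in Myl2-low cells in both libraries (1.08%) and 62 were at least 2-fold lower (0.839%). Without the mixed sub-cluster described below, 98 were higher and 79 lower, of which 74 and 41 were among the first. That setting takes cells out of the Myl2-low group only. With presumed doublets left out of both groups, 112 were higher and 90 lower, of which 73 and 60 were among the first. The cells were divided by Myl2, so these values describe the division. Shox2, a transcription factor of the sinus venosus (chromosome 3, 66971723 to 66981771), had 716 UMIs in Myl2-low cells and 6 in Myl2-positive cells labelled Ctrl, and 972 and 25 in those labelled cKO. The log2 ratio of Myl2-low over Myl2-positive was 6.20 (5.07 to 7.65) and 4.03 (3.45 to 4.66). Vsnl1, a neuronal calcium sensor also made in the sinus node, was at 284 against 17.8 CPM and at 299 against 26.9 CPM. Angpt1, the secreted ligand of the endothelial receptor Tie2, was at 356 against 51.7 CPM and at 227 against 40.7 CPM.

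Ion channel genes were among the leading ones. The potassium channel gene Kcnq3 was at 51.6 against 2.82 CPM in the library labelled Ctrl and at 24.4 against 1.76 CPM in the library labelled cKO. Hcn4, the main channel of the pacemaker current, was higher by log2 ratios of 1.95 and 1.32. Calca, which encodes calcitonin and the peptide CGRP, was at 114 and 85.9 CPM in Myl2-low cells and below 10 CPM in Myl2-positive cells of either library. The calcium-binding protein gene Pvalb was at 94.0 against 8.45 CPM and at 73.0 against 6.44 CPM, and other leading genes were Kcna5, Thbd, Stard10, Rarres2 and Tnnc2. The log2 ratio of Tnnc2 in the library labelled Ctrl was 3.98, and 1.22 without the mixed sub-cluster.

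Genes lower in Myl2-low cells were led by ventricular regulators. The log2 ratio of Irx4, on 1 and 2 UMIs in Myl2-low cells, was −7.20 (−12.51 to −4.68) and −7.76 (−10.81 to −5.88), and that of Hey2 was −4.85 (−6.77 to −3.43) and −4.43 (−5.69 to −3.37). Pln encodes phospholamban, the inhibitor of the calcium pump of the sarcoplasmic reticulum, and was at 26.5 against 216 CPM and at 17.0 against 171 CPM. Acta1, the skeletal alpha-actin also made in early heart muscle, was at 112 against 538 CPM and at 105 against 623 CPM. Ccnd2, a cyclin of the G1 phase, was at 142 against 903 CPM and at 133 against 617 CPM. Without the mixed sub-cluster Hey2 was at −5.51 and −5.74. Irx2 was at −4.31 and −2.55, and at −6.77 and −5.49 without it. Trib2 was at −2.16 and −2.52, and at −2.65 and −3.97 without it. The other leading genes were Cited1, Gpr22, Fgf10, S1pr1 and Adprhl1, and each gene named here as leading kept its direction in both libraries under each alternative that gave a value.

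**Figure D2:**
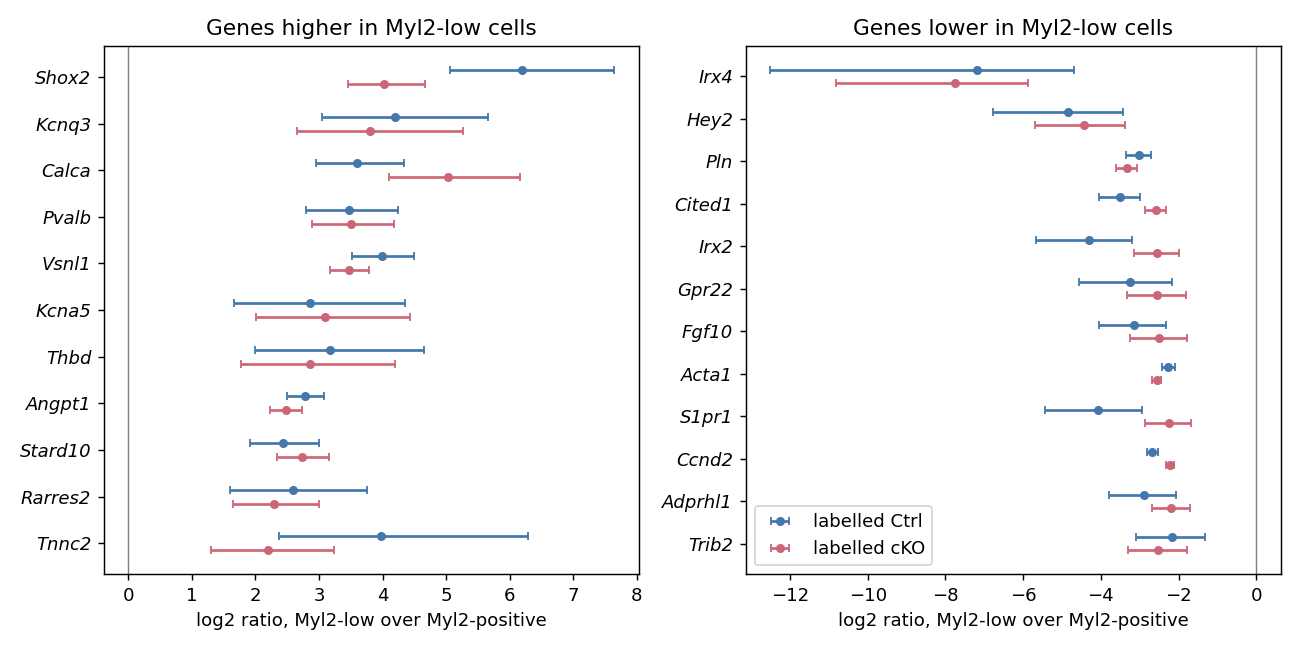
log2 ratio of summed levels in Myl2-low over Myl2-positive cells (x axis) for the leading genes of each direction (y axis), with the library labelled Ctrl in blue and the library labelled cKO in red. Points are ratios and bars the 95% counting intervals; Shox2 lies at 6.20 and 4.03 and Irx4, on 1 and 2 UMIs in Myl2-low cells, at −7.20 and −7.76.

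Myl2-low cells were not uniform. Clustering without the genes that differed between the libraries, the rule genes and cell cycle lists gave 6 sub-clusters, all with cells of both libraries, and 2 of them could be named from the marker lists. Sub-cluster 4 (41 cells labelled Ctrl and 80 labelled cKO) was sinus venosus-like, with 6 of 8 markers and with Smoc2, Shox2 and Tbx18 among its 10 leading genes. Sub-cluster 6 (28 and 45 cells) was outflow tract-like, with 8 of 8 markers and with Tdgf1 and Nrp2 leading. The sub-clusters were formed and named on these same cells, so their leading genes are a description, whether or not a gene entered the clustering.

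The other sub-clusters are called by their leading genes. Sub-cluster 1 (31 and 62 cells) was led by Cck, Osr1 and Kdr and held 4 of 10 atrial markers, none of them among its 10 leading genes. Leading genes were ranked on both libraries pooled. Cck was at 31.0 CPM labelled Ctrl and at 321 CPM labelled cKO, so its lead came from the cells labelled cKO. Sub-cluster 2 (31 and 108 cells) was led by Nppa, Nppb, Tnni3 and Cox6a2, genes of natriuretic peptides, of troponin I and of a mitochondrial oxidase subunit of muscle, and its median of rule gene UMIs was the highest, 6.33% and 6.30%. Sub-cluster 3 (33 and 53 cells) was led by the mitotic genes Prc1, Nusap1 and Ccnb1 and held 5 of 8 sinus venosus markers. Sub-cluster 5 (29 and 103 cells) was led by genes that included Foxd1 and Meox1 and had Tbx1, Barx1, Prrx1 and Col3a1 among its 10 leading genes, of which Prrx1 and Col3a1 are known from mesenchyme. In it 51.7% of cells labelled Ctrl and 68.9% labelled cKO were presumed doublets, the median was 22950 and 28164 UMIs per cell, and 24.1% and 24.3% of cells had at least 2 UMIs each of Xist and of Y-linked genes, against at most 3.57% in any other sub-cluster. It has no name and is called the mixed sub-cluster for these values.

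Sub-cluster 2 was 0.442% (0.301 to 0.627) of the cells passing the filter in the library labelled Ctrl and 1.11% (0.907 to 1.33) in the library labelled cKO, and the mixed sub-cluster 5 was 0.414% (0.277 to 0.594) and 1.05% (0.861 to 1.28). The sinus venosus-like cells were 0.585% (0.420 to 0.793) and 0.819% (0.650 to 1.02), and the outflow tract-like cells 0.3996% (0.266 to 0.577) and 0.460% (0.336 to 0.616). Intervals were apart for sub-clusters 2 and 5 and overlapped for the other 4. Without the mixed sub-cluster, the share of Myl2-low cells was 2.35% and 3.60%, a ratio of 1.53.

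Most genes differed little between the libraries in Myl2-low cells. Of 7390 genes counted, 86.5% lay within 1.5-fold, and the median log2 ratio of cKO over Ctrl was −0.060. Past 2-fold, 46 genes were higher (0.622%) and 98 lower (1.33%) in the library labelled cKO, or 60 and 72 when the ratios were centred on their median. Without the mixed sub-cluster, 41 were higher and 87 lower, of which 26 and 62 were among the first. In Myl2-positive cells 17 of the 46 and 41 of the 98 were also past 2-fold in the same direction, where 1.1% and 2.75% of the 7390 genes were. In cells that were not heart muscle 13 and 10 were, where 0.487% and 0.555% of the 7390 genes were. A sum over cells does not tell fewer cells that make a transcript from less transcript in each of them.

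Nppb encodes natriuretic peptide B, a hormone of working heart muscle, and was lower in the library labelled cKO. Nppb lies on chromosome 4 (147985786 to 147987205) and was at 172 CPM in the library labelled Ctrl and at 45.9 CPM in the library labelled cKO (log2 ratio −1.91, interval −2.10 to −1.72), with a UMI in 47 of 193 and in 61 of 451 cells. The Nppb ratio was −1.41 in Myl2-positive cells, −2.31 in Myl2-low cells with Xist only and −1.94 in those with Y-linked UMIs only. In cells that were not heart muscle, with 16 and 106 Nppb UMIs, the ratio was 2.47. Nppa beside it was at 365 and 294 CPM, with a log2 ratio of −0.31 (−0.41 to −0.21).

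Of the 12 leading genes lower in the library labelled cKO, several belong to muscle. Myocd, the coactivator of serum response factor in heart and smooth muscle, was at 187 and 81.7 CPM, with a log2 ratio of −1.19 (−1.35 to −1.04), with −1.08 in Myl2-positive cells, −0.04 in cells that were not heart muscle and −0.66 in Myl2-low cells with Y-linked UMIs only. Ppargc1a, a coactivator of mitochondrial biogenesis, was at 94.6 and 42.1 CPM (log2 ratio −1.17, within 2-fold at −0.97 without the mixed sub-cluster), and Synpo2l, a Z-disc protein gene, at 128 and 58.1 CPM (log2 ratio −1.14). Those of cell signalling were Jag1, a Notch ligand, at 93.4 and 43.4 CPM, Bmpr2, a BMP receptor, at 67.2 and 30.7 CPM, Fzd7, a Wnt receptor, at 53.6 and 17.4 CPM, and Gna13, at 59.7 and 27.0 CPM. The remaining ones were Cd59a, Kdm7a, Timmdc1 and Tpm3-rs7. Jag1, Bmpr2 and Timmdc1 came within 2-fold under at least 1 alternative. Apart from Nppb, all of them were also below 0 in cells that were not heart muscle, with log2 ratios from −4.57 for Tpm3-rs7 and −1.12 for Fzd7 to −0.20 for Ppargc1a and −0.04 for Myocd. Tpm3-rs7 is a near copy of Tpm3, and its counts are uncertain.

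The 12 leading genes higher in the library labelled cKO held no gene of the heart lists. Ubb, which encodes ubiquitin, was at 106 and 928 CPM, with a log2 ratio of 3.14 that was also 3.14 in cells that were not heart muscle. In Myl2-low cells with Xist only the Ubb ratio was 3.65, and in those with Y-linked UMIs only it was 1.61. Gm10076 was likewise higher there, by 2.12. Gm10076 and Gm10260 are predicted genes that can share reads with near copies, and their counts are uncertain. Phgdh, the first enzyme of serine synthesis, was at 23.9 and 85.3 CPM (log2 ratio 1.83, and 1.43 in the other cells). S100a10 and Anxa2, whose products form a complex, were at 38.9 and 99.2 CPM and at 27.4 and 57.6 CPM, with log2 ratios of 0.89 and 0.51 in cells with Y-linked UMIs only. Fdps, an enzyme of the cholesterol pathway, was at 62.3 and 132 CPM. The histone genes Hist1h2ap and Hist1h2ae, near copies of each other, and Snapc5, Tubb2a and Lsm7 made up the rest, and all 12 were also above 0 in Myl2-positive cells and in cells that were not heart muscle. Fdps, Snapc5, Tubb2a and Lsm7 came within 2-fold under at least 1 alternative.

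Genes of the contractile apparatus lay on both sides of 0. Of 22 sarcomere genes outside the rule, none was at least 2-fold higher and 1, Synpo2l, at least 2-fold lower in the library labelled cKO, and the median log2 ratio was −0.14 (−0.0088 without the mixed sub-cluster). It was −0.36 in Myl2-positive cells and 0.40 in cells that were not heart muscle. Among all genes counted in Myl2-low cells, 0.622% were at least 2-fold higher and 1.33% lower, with a median of −0.060. Ldb3, a Z-disc protein gene, was at 198 and 99.3 CPM and lay just short of 2-fold. Tnnc1 (troponin C) was at 2376 and 2737 CPM and Tpm1 (tropomyosin) at 7209 and 7477 CPM. Actn2 and Tnni3 were higher, by log2 ratios of 0.33 and 0.32.

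Calcium handling and excitation genes lay mostly below 0. All 16 counted were within 2-fold, and 14 were below 0, with a median log2 ratio of −0.57. Over all genes counted the median was −0.060. Atp2a2, the calcium pump of the sarcoplasmic reticulum, was at 1151 and 697 CPM (log2 ratio −0.72), and Ryr2, the calcium release channel, at 227 and 139 CPM (−0.70). The calcium channel gene Cacna1d was at 47.0 and 24.4 CPM (−0.95) and Hcn4 at 19.9 and 13.1 CPM (−0.60). Slc8a1, the sodium-calcium exchanger, was at 167 and 162 CPM. The list's median was −0.57 in Myl2-positive cells as well and −0.17 in cells that were not heart muscle, and in Myl2-low cells it was −0.36 without the mixed sub-cluster and −0.24 with Y-linked UMIs only.

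Heart transcription factors lay mostly below 0 as well. Of 23 counted, 1 (Myocd) was past 2-fold and 20 were below 0, with a median log2 ratio of −0.38. Among all genes counted, 1.33% were at least 2-fold lower and 0.622% higher, and the median log2 ratio was −0.060. Shox2 was at 206 and 119 CPM (log2 ratio −0.79), Isl1 at 118 and 71.1 CPM (−0.73), Tbx5 at 116 and 71.4 CPM (−0.70) and Nr2f2 at 372 and 240 CPM (−0.63). Nkx2-5 was at 98.6 and 103 CPM and Hey1 at 59.4 and 59.6 CPM, and differed by less than their counting error. The list's median was −0.40 in Myl2-positive cells, −0.28 in cells that were not heart muscle and −0.26 in Myl2-low cells without the mixed sub-cluster.

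Of the 9 lists, signalling genes had most members past 2-fold. Of 28 counted, 4 were at least 2-fold lower in the library labelled cKO, namely Nppb, Sema3c, Jag1 and Bmp10, none was at least 2-fold higher, and 26 were below 0. Of all genes counted, 1.33% were at least 2-fold lower, and the median log2 ratio was −0.060. Jag1, Sema3c and Bmp10 each came within 2-fold under at least 1 alternative. Sema3c, a semaphorin of the outflow tract, was at 46.1 and 17.0 CPM, with a log2 ratio of −1.44 (−1.78 to −1.10), with −1.62 in Myl2-positive cells, −0.98 in cells that were not heart muscle and −0.93 in Myl2-low cells with Xist only. Bmp10, a growth factor of trabecular muscle, was at 14.1 and 5.89 CPM. Bmp2 was at 71.5 and 38.3 CPM, Nrp2, a semaphorin receptor, at 128 and 68.4 CPM, and Erbb4, the neuregulin receptor, at 48.2 and 28.9 CPM. Wnt2 was at 237 and 242 CPM, and Rspo3, which strengthens Wnt signals, was on the other side at 24.2 and 34.8 CPM. The list's median was −0.60 in Myl2-low cells, −0.72 in Myl2-positive cells and −0.52 in cells that were not heart muscle, and −0.48 without the mixed sub-cluster. The list thus lay below 0 in all 3 groups of cells.

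Retinoic acid genes had a median log2 ratio of −0.11, with 6 of 8 below 0 and none past 2-fold. That median was −0.33 without the mixed sub-cluster, −0.40 in Myl2-positive cells and −0.38 in cells that were not heart muscle. Glycolysis genes had a median of 0.12 (16 counted, none past 2-fold, 0.17 without the mixed sub-cluster) and muscle energy genes of 0.16 (11 counted, Ppargc1a lower, 0.25 without it). Over all genes counted, 1.33% were at least 2-fold lower and the median was −0.060. The muscle energy median was −0.18 in Myl2-positive cells and turned to −0.073 in Myl2-low cells with Y-linked UMIs only. S phase and G2/M genes had medians of 0.19 and 0.20, with 13 and 12 of 16 above 0 and none past 2-fold, and of 0.15 and 0.067 without the mixed sub-cluster. In Myl2-positive cells these medians were −0.029 and 0.21, and in cells that were not heart muscle −0.067 and 0.0081. The share of UMIs from mitochondrial genes had medians of 4.03% and 3.07% per Myl2-low cell.

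**Figure D3:**
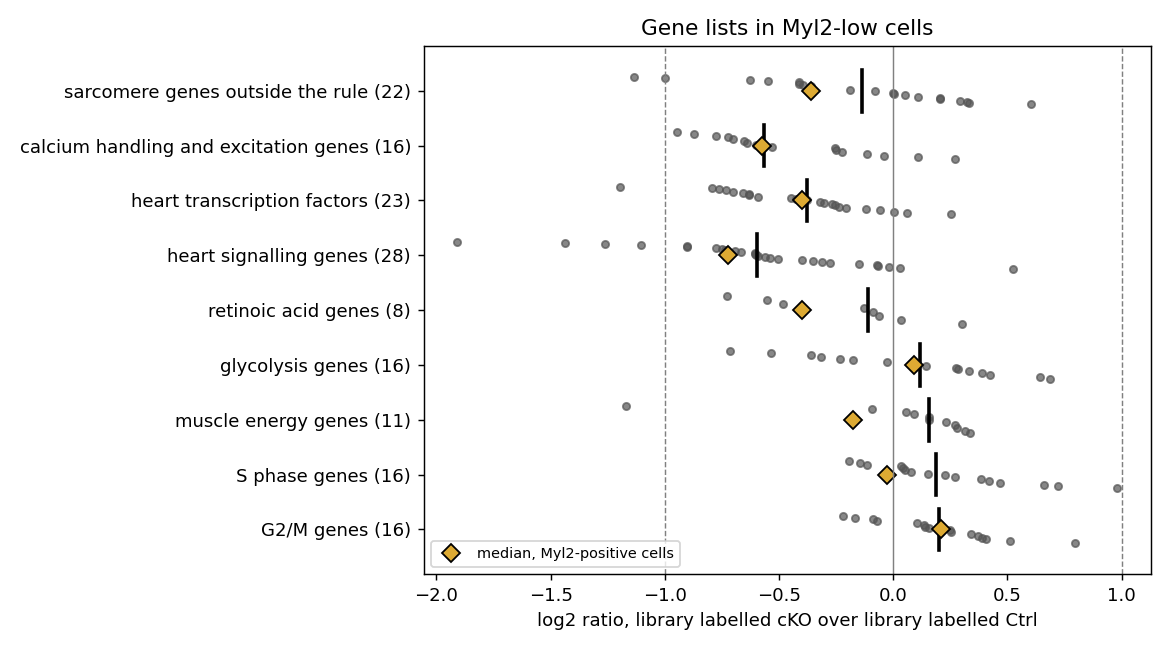
log2 ratio of the library labelled cKO over the library labelled Ctrl in Myl2-low cells (x axis) for each counted gene (grey points) of 9 lists (y axis, number of genes counted in brackets). Black bars are list medians, yellow diamonds the medians of the same genes in Myl2-positive cells and dashed lines 2-fold; calcium handling, transcription factor and signalling genes lie mostly left of 0, with medians of −0.57, −0.38 and −0.60.

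Within outflow tract-like cells most of the markers were lower in the library labelled cKO. Isl1 was at 381 and 171 CPM, with a log2 ratio of −1.16 (−1.51 to −0.81), Sema3c at 201 and 76.4 CPM (−1.40, −1.91 to −0.89) and Nrp2 at 928 and 532 CPM (−0.80, −1.01 to −0.60). Bmp4, Wnt11 and Tdgf1 were lower by log2 ratios of −0.63, −0.56 and −0.40, and Rspo3 was higher, at 88.8 and 173 CPM. The 8 outflow markers summed to 2485 and 1528 CPM. These 28 and 45 cells were named from the same markers, although Tdgf1 and Nrp2 did not enter the clustering. Other lists also differed within the outflow tract-like cells. Lower in the library labelled cKO were ventricular markers at 1681 and 1099 CPM, sinus venosus markers at 463 and 188 CPM, anterior progenitor markers at 460.5 and 240.2 CPM and skeletal muscle progenitor markers at 179.98 and 69.6 CPM. The sinus venosus and anterior progenitor lists also hold Isl1. Higher were epithelial markers at 596 and 1291 CPM, smooth muscle markers at 7893 and 10350 CPM, and primitive erythroid markers at 0 and 199 CPM. Primitive erythroid markers were higher in the library labelled cKO in each of the other sub-clusters too. The lower level was thus not confined to outflow markers, and the part of other cells in it was not tested. In the other sub-clusters the outflow list summed to less, from 150 to 433 CPM labelled Ctrl and from 126 to 420 CPM labelled cKO.

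Some other genes of the outflow tract-like cells, chosen after their values were seen, differed in either direction. Jag1 was at 150 and 38.2 CPM, Tnc, which encodes the matrix protein tenascin C, at 152 and 35.5 CPM, and Tnnt1 (slow troponin T) at 101 and 17.7 CPM. Tlx1, a homeobox gene, had 46 UMIs in 18 of 28 cells labelled Ctrl and 8 UMIs in 8 of 45 cells labelled cKO. Higher in the library labelled cKO were Pdlim3, which encodes a protein of the Z-disc, at 30.4 and 169 CPM, the keratin gene Krt8 at 292 and 730 CPM, and Wnt2, with 5 and 47 UMIs. Hand2 was at 217 and 186 CPM and Fgf8 at 56.1 and 50.5 CPM, with intervals of the ratio that held 0. Tbx1 had 3 and 5 UMIs in these cells, so a difference in it was not detectable at this depth.

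Within sinus venosus-like cells the markers differed in both directions and summed to 1929 and 1718 CPM. Shox2 was at 579 and 447 CPM, with a log2 ratio of −0.37 (−0.58 to −0.17), with a UMI in 38 of 41 and in 77 of 80 cells. The intervals of Isl1 (191 and 154 CPM), Tbx18 (104 and 86.8 CPM), Hcn4 (40.3 and 41.3 CPM) and Vsnl1 (500 and 570 CPM) held 0. Smoc2, a matrix protein gene, was higher in the library labelled cKO, at 95.5 and 155 CPM. Ptn, which encodes the growth factor pleiotrophin, was chosen after its values were seen and was at 73.1 and 472 CPM, with a UMI in 21 of 41 and in 45 of 80 cells.

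**Figure D4:**
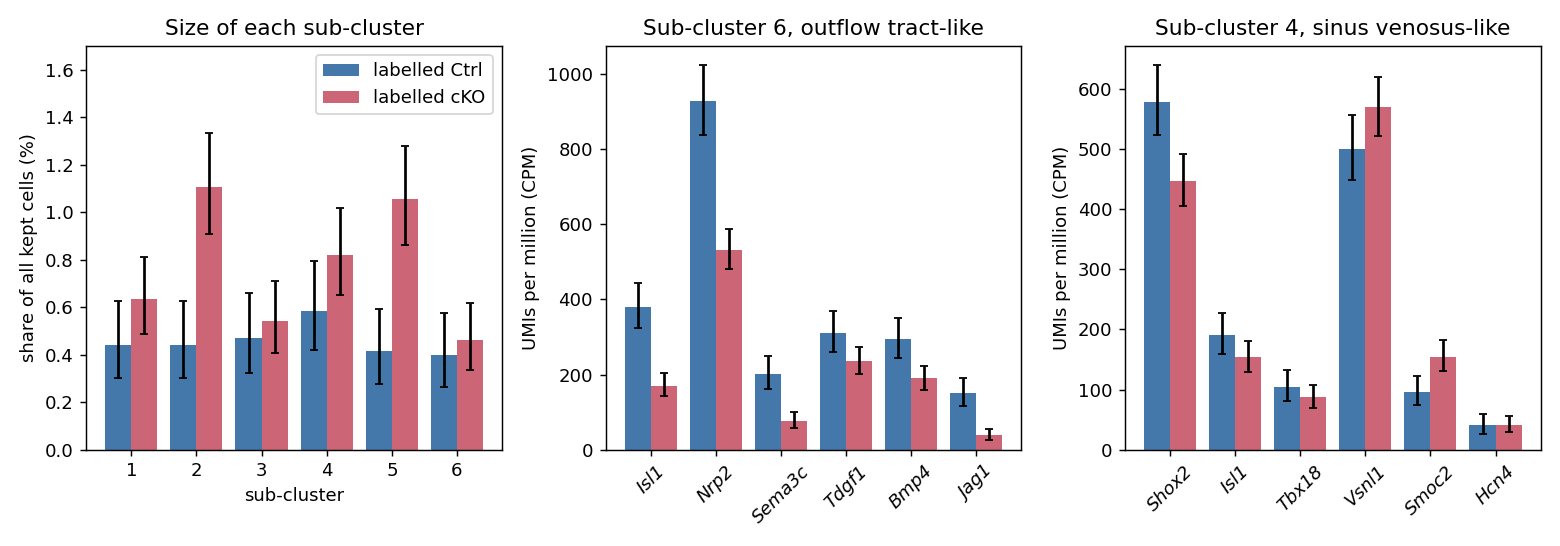
Left, share of each sub-cluster among all cells passing the filter (y axis, percent; x axis, sub-cluster) in the libraries labelled Ctrl (blue) and cKO (red). Middle and right, summed levels (y axis, CPM) of 6 genes (x axis) in outflow tract-like and sinus venosus-like cells; bars carry 95% counting intervals, and Isl1 is at 381 and 171 CPM in the first and at 191 and 154 CPM in the second.

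The level of Nppb was highest in sub-clusters 2 and 3. In sub-cluster 2 Nppb was at 689 and 159 CPM, with a log2 ratio of −2.11 (−2.35 to −1.88), with a UMI in 19 of 31 and in 28 of 108 cells. A Myl2 UMI was found in 20 of these 31 cells and in 32 of these 108. The ventricular list there summed to 4260 and 3006 CPM. Nppb and Nppa were at least 2-fold lower in Myl2-low than in Myl2-positive cells of both libraries. The part of this makeup in the Nppb ratio was not tested. In sub-cluster 3 Nppb was at 255 and 24.6 CPM (−3.37, −4.05 to −2.75). Its ratio was also below 0 in sub-clusters 1, 4 and 5, and outflow tract-like cells labelled Ctrl had no Nppb UMI. Nppa in sub-clusters 2 and 3 was at 1697 and 1077 CPM and at 428 and 120 CPM. Tnni3 and Myl3, which mark the same working muscle, were at 1577 and 1338 CPM and at 3967 and 2870 CPM in sub-cluster 2. Myocd was lower in all 6 sub-clusters, with log2 ratios from −1.22 in sub-cluster 5 to −0.70 in sub-cluster 6.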

How the data were processed

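The authors deposited raw counts of UMIs per gene and barcode for 27998 genes, made with Cell Ranger 3.1.0 on mm10 per the submitters' processing notes, as filtered matrices without normalization. UMIs were summed per library over Myl2-low, Myl2-positive and other cells and divided by the total (CPM). Genes were counted with a mean of at least 10 CPM and 30 UMIs in all, leaving out rule genes, Myl2 and technical genes. A call is a 2-fold difference, since 1 library per group allows no test. Intervals are exact (Poisson, conditional for ratios, Clopper-Pearson for shares). Doublets were scored with Scrublet in scanpy 1.11.5, and the top 0.8% per 1000 cells were presumed doublets. Sub-clusters came from Leiden clustering at resolution 0.5. Named genes were the 12 largest ratios per direction at 50 CPM or more, with intervals beyond 1.5-fold and the same direction in cells of either sex class, the 12 most different from Myl2-positive cells, and list members. The cells, lists and rules were chosen with earlier results of these data known. Ratio scripts were tested on simulated data. Some genes that these rules name are not reported here. Positions and promoters are from RefSeq on GRCm38.p6.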

Additional observations from a re-analysis of the deposited data

Results flagged for a closer look

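Haemoglobin transcripts lay outside every count of genes, and 21322 haemoglobin UMIs were found in Myl2-low cells labelled cKO against 2 in those labelled Ctrl.

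For 9 genes of the lists, the counting intervals of the log2 ratio of cKO over Ctrl lay on opposite sides of 0 in Myl2-low and Myl2-positive cells, and the difference was not tested. The same count over all 7390 genes was not made, so these 9 have no background to be read against. Shox2 was at −0.79 in Myl2-low and 1.38 in Myl2-positive cells, where it had 6 and 25 UMIs. Nr2f1 was at −0.32 and 0.43. Rspo3 was at 0.52 and −0.82, and Mki67, a proliferation gene, at 0.37 and −0.45. The muscle genes Tnni3, Fabp3, Cox7a1, Cryab and Eno3 were at 0.32, 0.23, 0.28, 0.11 and 0.091 in Myl2-low cells and at −0.36, −0.34, −0.31, −0.15 and −0.18 in Myl2-positive cells.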

How the results depend on the processing

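No paired analysis was possible because each group is 1 library. The counts of genes at least 2-fold higher and lower in the library labelled cKO were 88 and 163 in cells with Xist only, 147 and 218 in cells with Y-linked UMIs only, 117 and 196 after thinning to 5000 UMIs, 462 and 490 with a minimum of 10 UMIs and no CPM minimum, and 8 and 12 at 50 CPM or more; these settings change the number of cells, UMIs or genes counted. Centred on the median they were 60 and 72. Higher and lower than Myl2-positive cells were 386 and 268 genes with a minimum of 10 UMIs, and 22 and 22 at 50 CPM; lower were 110 in cells with Y-linked UMIs only and 109 after thinning. The share of Myl2-low cells was 1.97% and 3.41% at 2% rule UMIs or more, 2.35% and 3.60% without the mixed sub-cluster (an alternative chosen after seeing the data), and 4.17% in the library labelled cKO among cells with Y-linked UMIs only, while the ratio of both shares stayed between 1.53 and 1.73. Resolution 1 gave 10 sub-clusters in place of 6. The Tbx1 log2 ratio was −0.082 without presumed doublets and −0.40 without the mixed sub-cluster. No other named gene past 2-fold changed sign, but of 27 such genes 14 came within 2-fold under at least 1 alternative. In cells with Y-linked UMIs only these were Myocd (−0.66), Ppargc1a (−0.73), Anxa2 (0.51), S100a10 (0.89), Jag1 (−0.98), Fdps (0.97) and Timmdc1 (−0.995), and in cells with Xist only Sema3c (−0.93), Snapc5 (0.91), Jag1 (−0.92), Lsm7 (0.94) and Tubb2a (0.85). Of 36 named ratios of cKO over Ctrl 7 moved by over 1.5 times under at least 1 alternative, among them Cd59a (to −1.16), Fzd7 (to −2.21), Hist1h2ae (to 2.15), Tpm3-rs7 (to −5.14) and Ubb (to 1.61), as did 40 of 48 ratios of Myl2-low over Myl2-positive cells. Bmpr2 was at −0.81 after thinning and Bmp10 at −0.97 as a mean over cells. With 1 library per group, no interval here covers the spread between embryos, and 193 and 451 cells limit what the sub-clusters can show.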

Other observations

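Some genes outside the lists stood out in single sub-clusters and were chosen after their values were seen. Cck, a gut and brain peptide gene, was at 31.0 CPM in sub-cluster 1 of the library labelled Ctrl and at 321 CPM in that labelled cKO, with a UMI in 7 of 31 and in 28 of 62 cells. In the mixed sub-cluster 5, where 51.7% and 68.9% of cells were presumed doublets, 3 genes that encode fast skeletal muscle proteins were lower in the library labelled cKO. Tnnc2 was at 92.8 and 8.39 CPM, Tnni2 at 95.5 and 31.0 CPM and Mylpf at 149 and 42.0 CPM, while Foxd1 was at 13.6 and 66.8 CPM and Twist1 at 154 and 172 CPM. In sub-cluster 6 the difference was in the other direction for Tnni2, at 11.7 and 36.8 CPM, and for Mylpf, at 9.35 and 31.4 CPM. Tnnc2 in sub-cluster 5 had its UMIs in 6 of 29 cells labelled Ctrl and in 16 of 103 labelled cKO.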
